A study of Homo sapiens with 4 samples.

Results

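The 280 genes described here are those named ZNF with a number and at most one letter, whose level averaged at least 5 TPM (transcript abundance scaled to gene length and to the same total in each library) over 12 RNA-seq libraries. They were thus chosen by their measured mean level in these same libraries. They stand among 510 genes of that name form in a table of 43622 genes. PC3 cells, an established line from a human prostatic adenocarcinoma, were used as such (genotype label wt) or after retroviral delivery of a short hairpin RNA against p14ARF with stable selection (PC3-shp14ARF cells). Each was given DMSO or 1 µM MLN4924, an inhibitor of NEDDylation, for 3 days. Ctrl and MLN denote PC3 cells given DMSO and MLN4924, and shARF and Both denote PC3-shp14ARF cells given DMSO and MLN4924. Each of these 4 conditions had 3 replicate libraries. The sources used here name no control hairpin for the PC3 cells and do not say whether the PC3-shp14ARF cells were 1 clone. None says whether replicate libraries came from separate cultures, so p-values measure the spread between these libraries, which may be technical.

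ZNF is a name for proteins with zinc fingers, short folds held by a zinc ion. Most of them carry a row of C2H2 fingers that reads DNA. The largest group, the KRAB zinc finger proteins, joins the fingers to a KRAB domain, which recruits the corepressor TRIM28 and with it the histone methyltransferase SETDB1, heterochromatin proteins and histone deacetylases. KRAB genes stand in long rows of duplicated neighbours, above all on chromosome 19, and many of their proteins silence transposable elements. Other ZNF genes have no KRAB domain and act as transcription factors, as parts of chromatin complexes, or in RNA and ribosome biology.

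The members had a median mean of 12.4 TPM and together made up between 0.487% and 0.553% of all transcripts in a library. Of the 280, 106 had a mean between 5 and 10 TPM, 174 of at least 10 TPM and 6 of at least 100 TPM. In 237 the mean of each of the 4 conditions reached 5 TPM, and in 216 every library did. The other 43 passed the threshold with at least 1 condition mean below it, through the conditions where they were high, so the choice of members favours a difference between conditions in them. Among those named below these are ZNF114, ZNF275, ZNF33A, ZNF33B, ZNF362, ZNF37A, ZNF426, ZNF438, ZNF441, ZNF449, ZNF469, ZNF486, ZNF518B, ZNF528, ZNF585B, ZNF653, ZNF695, ZNF724, ZNF738, ZNF76, ZNF808 and ZNF860, and their fold changes and p-values are to be read with that. Just inside the threshold lay ZNF426, ZNF585B and ZNF653. Just outside lay ZNF296 at a mean of 4.998 TPM, ZNF300 at 4.95 TPM and ZNF93 at 4.89 TPM. Of the remaining ZNF-named genes, 6 were listed at 0 in every library.

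All 280 members were found in the GENCODE annotation of GRCh38. They lay on 21 chromosomes, with 124 members on chromosome 19, 23 on chromosome 16, 18 on chromosome 7, 16 on chromosome 1 and 13 on chromosome 10. A translated coding sequence held a median of 10 C2H2 finger patterns and at most 36. In 6 members (ZNF185, ZNF330, ZNF365, ZNF503, ZNF703 and ZNF839) no such pattern was found. A short KRAB pattern was found in 119 members and a wider one in 151. The short pattern misses genes long known as KRAB genes, such as ZNF33A, ZNF33B and ZNF274, so counts for both are given. Of the 280, 40 shared over 10% of the 64-base stretches of their transcript with transcripts of other genes, and their levels depend on how the authors' counting assigned such reads. Among the members named below these are ZNF358, ZNF365, ZNF395, ZNF410, ZNF585B, ZNF653, ZNF724, ZNF738, ZNF808, ZNF37A and ZNF511.

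The depth of the libraries is unknown, since TPM carries no read number, and every library sums to 1000000. Replicate libraries correlated with r between 0.980 and 0.993 over log2(TPM + 0.1) of the 280 members. CDKN2A, the gene of p14ARF, was at 183 ± 6.49 TPM (SD, n = 3) in Ctrl and 118 ± 16.4 in MLN, against 59.3 ± 1.47 in shARF and 47.5 ± 6.4 in Both. These values are for the gene as a whole and do not separate the p14ARF transcript from others of the gene. The 5 PC3 markers (KRT8, KRT18, EPCAM, VIM and CD44) were present in every library, with a sum of 1336 to 1464 TPM in Ctrl, 668 to 765 in MLN, 1296 to 1429 in shARF and 546 to 586 in Both. KLK3 was listed at 0 in all of them. Of 10 markers of leukocytes, endothelium, fibroblasts and hepatocytes, 6 stayed below 0.5 TPM in every library. Their sum was 179 to 252 TPM in Ctrl, 461 to 628 in MLN, 86.1 to 106 in shARF and 317 to 356 in Both, nearly all of it CD68, a lysosomal protein not restricted to macrophages. Without CD68 the sum was 18.7 to 21.6 TPM in Ctrl, 21.7 to 23.7 in MLN, 10.7 to 12.5 in shARF and 12 to 13.0 in Both. Single genes of this sum moved in opposite directions: of the 4 tested, 3 rose and 1 fell in MLN vs Ctrl. With MLN4924 in PC3 cells the mean of PECAM1, an endothelial marker, fell from 11.7 to 0.579 TPM. The fibroblast markers COL1A1 and COL3A1 rose there from 7.27 to 18.2 and from 0.525 to 3.38 TPM. PC3-shp14ARF cells had PECAM1 going from 1.91 to 0.173 TPM, COL1A1 from 4.04 to 6.08 and COL3A1, not called, from 5.28 to 5.79. All 10 genes of a list of G2/M and proliferation genes, among them MKI67, TOP2A and CDK1, were higher in shARF than in Ctrl, 7 were lower and 2 higher in MLN than in Ctrl, and 7 were lower and 1 was higher in Both than in shARF. The part of these shifts in the values of the ZNF genes was not tested. In bulk samples fewer cells of a kind and less RNA per cell cannot be told apart.

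The most abundant members were of varied known function. ZNF593, a ribosome assembly factor, had the highest mean over the 12 libraries, followed by ZNF330, a nucleolar protein, ZNF503, a transcriptional repressor, ZNF664, ZNF581, ZNF217, a cofactor found with CtBP and CoREST, ZNF622, a factor of late 60S ribosome maturation, and ZNF358. ZNF664 was at 145, 137 and 147 TPM in the Ctrl libraries, 63.2, 64.3 and 68.5 in MLN, 162, 165 and 158 in shARF and 103, 116 and 95.2 in Both. It was lower with MLN4924 in both cell populations without any overlap of libraries (log2 fold change −1.13, SE 0.05, adjusted p = 1.77e-05 in MLN vs Ctrl by limma, and −0.63, SE 0.08, adjusted p = 0.000721 in Both vs shARF). ZNF503 fell from 166, 144 and 154 TPM in Ctrl to 73.6, 90.3 and 100 in MLN, and from 175, 166 and 193 in shARF to 77.0, 73.6 and 82.6 in Both. ZNF217 stayed between 92.0 and 120 TPM in all libraries. Its call in Both vs shARF (log2 fold change 0.20, adjusted p = 0.0418) was lost in 7 of 13 other settings.

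To see how the ZNF genes answered MLN4924 in PC3 cells, MLN was compared with Ctrl. The response was mixed in direction: 110 members rose and 83 fell. The largest log2 values were those of ZNF114, which rose from below 1 TPM to above 10 TPM and reached the mean of 5 TPM only through its MLN4924 libraries, and of ZNF469, which fell to below 0.5 TPM and reached it only through its DMSO libraries. The counts were 39.3% higher and 29.6% lower. Of all 19932 genes tested, 32.2% were called higher and 29.4% lower, and of the 11183 genes averaging 5 TPM or more, 37.3% and 37.4%. Their median log2 fold change was 0.15, beside −0.00 for genes of at least 5 TPM. Beyond a log2 value of 1 in either direction there were 26 higher and 17 lower members, beside 15.6% and 12.4% of all genes tested and 12% and 11.7% of genes averaging 5 TPM or more. Among the 237 members that reached 5 TPM in each condition, 92 rose and 63 fell, with 14 above 1 and 7 below −1.

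**Figure D1:**
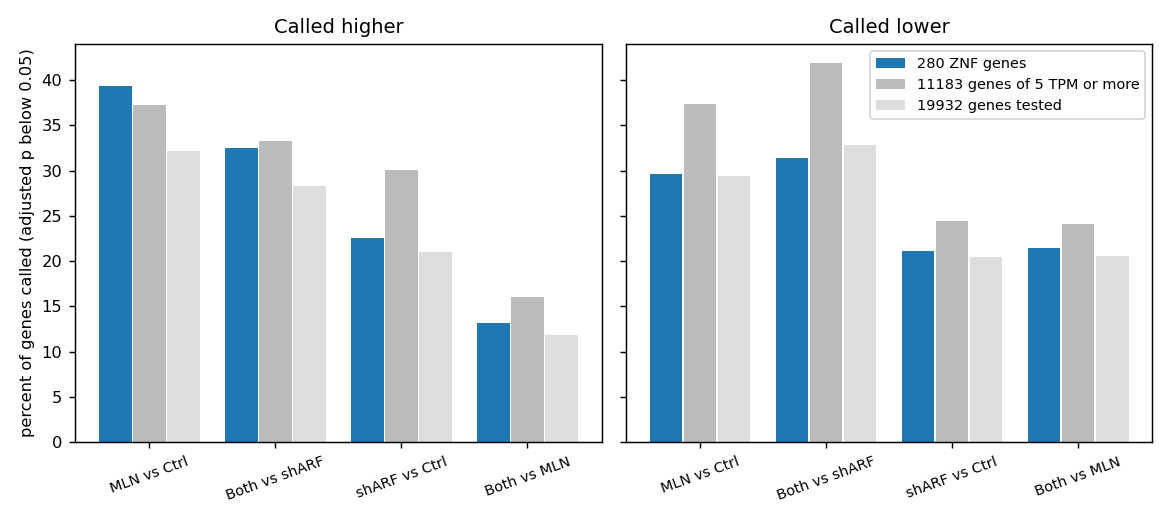
Percent of genes called higher (left) or lower (right) at an adjusted p below 0.05 in 4 comparisons, for the 280 ZNF genes, the 11183 genes averaging 5 TPM or more and the 19932 genes tested (bars from 0). For lower calls the ZNF bar lies below that of genes averaging 5 TPM or more in each comparison, for example 29.6% against 37.4% in MLN vs Ctrl.

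ZNF114, a KRAB zinc finger gene on the plus strand of chromosome 19 (GRCh38 48270081 to 48287608), was the most strongly induced. It was at 0.574, 0.600 and 0.355 TPM in Ctrl and at 10.8, 13.4 and 12.8 TPM in MLN. The shARF libraries had 1.21, 1.66 and 1.80 TPM and the Both libraries 9.21, 11 and 8.34 TPM. All MLN4924 libraries were above all DMSO libraries, and all shARF libraries above all Ctrl libraries. The log2 fold change was 4.37 (SE 0.20, adjusted p = 1.81e-05) in MLN vs Ctrl and 2.54 (SE 0.18, adjusted p = 7.96e-05) in Both vs shARF. Across the 12 libraries the members most like it were ZNF695 (r = 0.969), ZNF473 (r = 0.963) and ZNF408 (r = 0.963), which also rose with MLN4924 in both populations. These r are a description over libraries that share the conditions.

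The next largest rises in MLN vs Ctrl were those of ZNF367, a factor with 2 finger patterns, of ZNF808 and ZNF611 from the same stretch of chromosome 19, and of ZNF365, a coiled-coil protein of the centrosome. ZNF367 was at 7.67, 6.28 and 7.33 TPM in Ctrl and 21.9, 20.1 and 23.4 in MLN (log2 fold change 1.61, SE 0.10, adjusted p = 4.70e-05). ZNF365 was at 8.75, 8.33 and 7.74 TPM in Ctrl and 22.1, 24.3 and 22.4 in MLN (log2 fold change 1.46, SE 0.07, adjusted p = 2.14e-05). In none of them did the libraries overlap.

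The strongest fall was that of ZNF469, on the plus strand of chromosome 16 (88382959 to 88440757), a very large protein whose mutations cause brittle cornea syndrome. Its values were 10.5, 7.77 and 7.48 TPM in Ctrl, 0.489, 0.453 and 0.499 in MLN, 12, 11.9 and 13.1 in shARF and 1.14, 1.20 and 1.11 in Both. Every MLN4924 library was far below every DMSO library (log2 fold change −3.89, SE 0.17, adjusted p = 1.43e-05 in MLN vs Ctrl, and −3.31, SE 0.09, adjusted p = 2.74e-06 in Both vs shARF). ZNF362 went from 25, 19.7 and 18.9 TPM in Ctrl to 5.54, 6 and 6.20 in MLN (log2 fold change −1.81, SE 0.12, adjusted p = 5.94e-05). ZNF827 and ZNF76, described with their groups below, and ZNF33B were the others among the 5 largest falls.

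In PC3-shp14ARF cells, the same question was put by Both vs shARF. Here 91 members rose and 88 fell, 32.5% and 31.4%, beside 28.3% and 32.8% of all genes tested and 33.3% and 41.9% of genes averaging 5 TPM or more. With median-of-ratios scaling, which moves the median of all genes in this comparison by 0.096 on the log2 scale, the split was 112 higher and 70 lower. The shares of all genes called under that scaling were not counted. Beyond a log2 value of 1 there were 13 higher and 18 lower members, beside 13% and 13.4% of all genes tested and 9.97% and 12.3% of genes averaging 5 TPM or more. Of the 237 members at 5 TPM or more in each condition, 77 rose and 70 fell. The largest rises were those of ZNF114, ZNF385A, ZNF438, ZNF697 and ZNF808, and the largest falls those of ZNF469, ZNF33B, ZNF362, ZNF76 and ZNF395. ZNF438 was at 2.73, 2.44 and 2.60 TPM in shARF and at 10.4, 12.5 and 9.89 in Both (log2 fold change 2.03, SE 0.11, adjusted p = 3.02e-05). ZNF395 fell from 51.8, 49.96 and 48.1 TPM to 16.1, 16.7 and 13.3 (log2 fold change −1.70, SE 0.09, adjusted p = 3.01e-05), though 41.6% of its 64-base stretches are shared with FBXO16.

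The responses of the 2 cell populations, which share no library, were set side by side gene by gene. Of the 280 members, 74 rose in both, 66 fell in both, 5 were called in opposite directions and 53 were called in neither. A further 34 rose and 14 fell in PC3 cells only by the threshold, and 14 rose and 20 fell in PC3-shp14ARF cells only by the threshold, which by itself shows no difference between them. Across the 280 genes, which are not independent replicates, Pearson's r of the log2 fold changes was 0.861 and Spearman's rho 0.857, beside an r of 0.864 over genes of at least 5 TPM and 0.770 over all genes tested.

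**Figure D2:**
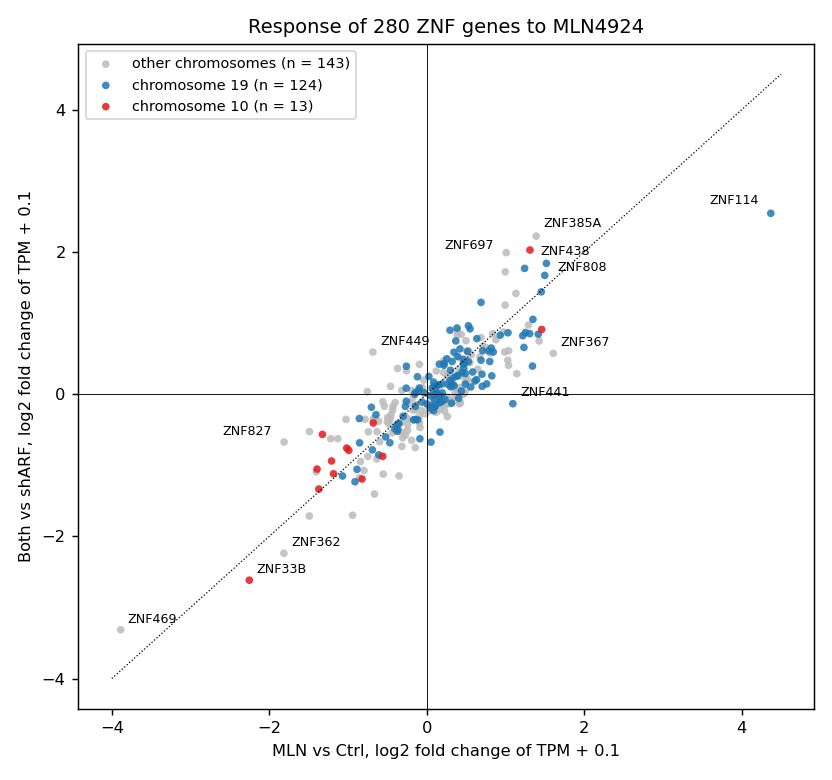
Log2 fold change of TPM + 0.1 with MLN4924 in PC3 cells (MLN vs Ctrl, x axis) and in PC3-shp14ARF cells (Both vs shARF, y axis), 1 point for each of 280 ZNF genes, coloured by chromosome. The dotted line marks equal change. The points follow the line (r = 0.861), 11 of the 13 chromosome 10 genes lie below 0 on both axes, and ZNF114 lies below the line at 4.37 and 2.54.

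On chromosome 10 most members fell. Of the 13 members on chromosome 10, 11 fell and 2 rose in MLN vs Ctrl, and the same counts held in Both vs shARF. The 9 members between ZNF248 and ZNF22 (GRCh38 37776526 to 45005326, an interval chosen after its values were seen) all fell in both populations, beside 29.6% of the members called lower in MLN vs Ctrl and 31.4% in Both vs shARF. They lie on both sides of the centromere and on both strands, and 6 of them carry the wider KRAB pattern. Their median log2 fold change was −1.21 in MLN vs Ctrl and −0.94 in Both vs shARF. In each of 13 other settings of each comparison all 9 were called lower. These settings included every library left out in turn, and none of them used the library numbers. All kept the same interval and the same 9 members, so they bear only on the processing. ZNF33A, ZNF33B and ZNF37A are among the members that passed 5 TPM with a condition mean below it. The choice of members therefore favours a difference between conditions in them.

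ZNF33B, a KRAB gene, had the deepest fall of the 9: 14.4, 13.1 and 14.4 TPM in Ctrl, 3.04, 2.73 and 2.76 in MLN, 12.1, 12.4 and 12 in shARF, and 1.95, 2.08 and 1.69 in Both. The MLN4924 libraries stood far below the DMSO libraries in both populations (log2 fold change −2.25, SE 0.08, adjusted p = 9.46e-06, and −2.62, SE 0.10, adjusted p = 8.60e-06). Its near copy ZNF33A on the other side of the centromere went from 11.5 ± 0.59 TPM (SD, n = 3) in Ctrl to 4.31 ± 0.26 in MLN and from 14.1 ± 0.75 in shARF to 6.74 ± 0.62 in Both. The 2 genes share about 3.2% of their 64-base stretches, and each encodes 17 finger patterns. ZNF32, a short gene without KRAB, went from 51.6 ± 5.5 to 22.3 ± 2.4 TPM in PC3 cells and from 45.8 ± 2.6 to 23.8 ± 0.94 in PC3-shp14ARF cells. ZNF248, the most abundant of the 9, went from 58.6 ± 4.0 to 29.5 ± 2.2 TPM and from 73.1 ± 3.5 to 42.4 ± 5.3. The smallest fall was that of ZNF22, whose log2 fold changes were −0.68 and −0.41.

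The interval also held 5 other genes averaging 5 TPM or more that could be placed on the annotation. Of these 1 rose and 3 fell in MLN vs Ctrl, and 2 rose and 3 fell in Both vs shARF. CSGALNACT2, an enzyme of chondroitin sulfate synthesis, was the one that rose most, by a log2 value of 1.95 in PC3 cells. The fall was therefore not shared by every expressed gene of the interval. Outside it on chromosome 10, ZNF438 and ZNF365 rose, and ZNF503 and ZNF511 fell, in both populations.

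**Figure D3:**
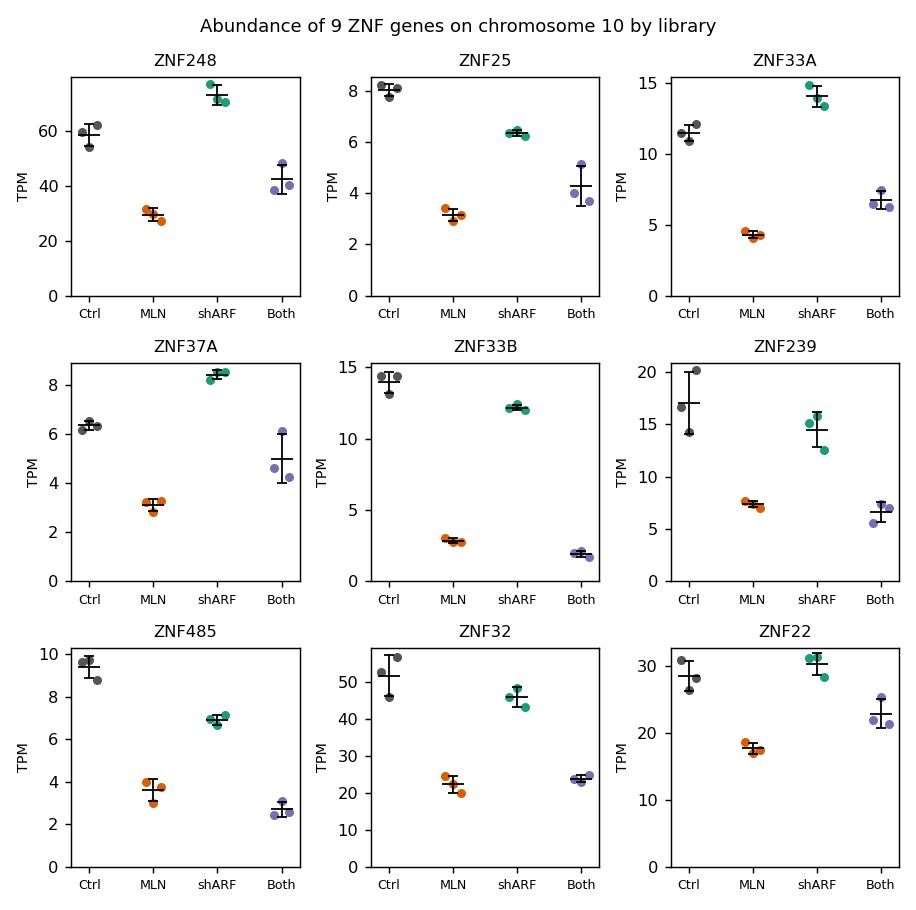
TPM of the 9 ZNF genes of the chromosome 10 interval in the 12 libraries (points), with the mean and SD (black) of the 3 libraries of each condition. The y axes start at 0. In each panel the MLN points lie below all Ctrl points and the Both points below all shARF points.

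The 250 bases before the RefSeq start of ZNF33A and ZNF33B are shown because these genes are copies that fell in both populations. They are on GRCh38.p14 at chr10:38010425-38010674 (plus strand) and chr10:42638571-42638820 (minus strand), 5′ to 3′, and capitals mark runs of at least 14 bases found in both, 102 bases in each.
ZNF33A: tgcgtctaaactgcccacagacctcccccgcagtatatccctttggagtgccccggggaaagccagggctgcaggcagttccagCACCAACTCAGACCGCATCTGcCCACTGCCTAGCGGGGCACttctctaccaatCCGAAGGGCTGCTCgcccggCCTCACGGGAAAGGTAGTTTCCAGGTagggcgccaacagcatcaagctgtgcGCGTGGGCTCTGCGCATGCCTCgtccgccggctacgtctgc
ZNF33B: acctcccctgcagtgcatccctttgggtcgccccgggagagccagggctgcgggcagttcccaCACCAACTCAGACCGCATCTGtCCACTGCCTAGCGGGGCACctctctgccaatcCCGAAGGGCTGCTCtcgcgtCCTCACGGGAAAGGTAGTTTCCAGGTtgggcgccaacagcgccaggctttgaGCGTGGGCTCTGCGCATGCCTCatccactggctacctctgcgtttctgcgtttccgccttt
Both hold the letters CCAAT and have a GC content of 63.6%.

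On chromosome 19 more members rose than fell. Of its 124 members, 56 rose and 18 fell in MLN vs Ctrl (median log2 fold change 0.24), and 46 rose and 24 fell in Both vs shARF (median 0.13). These were 45.2% and 14.5%, and 37.1% and 19.4%. Among all members 39.3% rose and 29.6% fell in MLN vs Ctrl, and 32.5% and 31.4% in Both vs shARF. Of genes averaging 5 TPM or more the shares were 37.3% and 37.4%, and 33.3% and 41.9%. On the other chromosomes 54 of 156 rose and 65 fell in MLN vs Ctrl (median −0.06), and 45 rose and 64 fell in Both vs shARF (median −0.13). With median-of-ratios scaling the counts in Both vs shARF were 61 higher and 17 lower on chromosome 19, and 51 higher and 53 lower on the others (median −0.04). Shares over all genes were not counted under it. The KRAB members showed a like balance. Of the 119 with the short pattern, 55 rose (46.2%) and 23 fell (19.3%) in MLN vs Ctrl, with 15 above a log2 fold change of 1 and 1 below −1. Of the 161 without it, 55 rose and 60 fell, with 11 above 1 and 16 below −1. With the wider pattern, 66 of 151 rose and 33 fell, and 44 of the 129 others rose and 50 fell. KRAB and chromosome 19 overlap: 79 KRAB members on chromosome 19 had 39 higher and 8 lower, while the 40 KRAB members elsewhere had 16 higher and 15 lower. No test of the difference between these groups was run. Across the 280 genes, Spearman's rho between the number of fingers and the log2 fold change was 0.11 in MLN vs Ctrl and 0.13 in Both vs shARF.

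Rows of members on chromosome 19 were joined where gaps were at most 1000000 bases, and those described were chosen after their values were seen, with no test between rows. The row of 26 members from ZNF175 to ZNF331 (GRCh38 51571283 to 53580269), of which 25 carry the wider KRAB pattern, had 13 members higher and 2 lower in MLN vs Ctrl and 13 higher and 3 lower in Both vs shARF. In the other direction, 12 were lower and 1 higher in shARF than in Ctrl (median log2 fold change −0.26), and 10 were lower and 1 higher in Both than in MLN (median −0.17). Among all members the shares called higher in MLN vs Ctrl and Both vs shARF were 39.3% and 32.5%. The shares called lower in shARF vs Ctrl and Both vs MLN were 21.1% and 21.4%. Over 13 other settings of each comparison, none of them using the library numbers, the row had 11 to 15 higher in MLN vs Ctrl, 12 to 15 higher in Both vs shARF, 9 to 14 lower in shARF vs Ctrl and 7 to 11 lower in Both vs MLN.

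The strongest responses of the row lay in its middle. ZNF808, with 23 finger patterns, was at 4.90, 5.23 and 5.55 TPM in Ctrl, 15.8, 15.3 and 14.4 in MLN, 4.71, 3.85 and 4.02 in shARF, and 14.9, 16.6 and 14.2 in Both. ZNF611 was at 7.69, 6.65 and 7.01 TPM in Ctrl, 21, 20.2 and 19.6 in MLN, 5.44, 5.43 and 5.46 in shARF, and 17.0, 19.1 and 16.6 in Both. All MLN4924 libraries were above all DMSO libraries for both genes (ZNF808 log2 fold change 1.52, adjusted p = 2.32e-05 in MLN vs Ctrl and 1.84, adjusted p = 3.46e-05 in Both vs shARF). ZNF468 rose less in PC3-shp14ARF cells, from 20.1, 20.6 and 19.1 to 30.5, 33.6 and 30.4 TPM, than in PC3 cells, from 23.5, 23.4 and 26.4 to 58.6, 58.4 and 55.7 TPM (interaction −0.58, adjusted p = 0.000669). ZNF600 and ZNF701 stood near it, with log2 fold changes of 1.25 and 1.22 in MLN vs Ctrl and of −0.81 and −0.72 in Both vs MLN. ZNF480 was the member of the row that fell most, from 30.5 ± 0.61 TPM (SD, n = 3) in Ctrl to 19.99 ± 0.87 in MLN and from 29.6 ± 0.93 in shARF to 16.4 ± 1.4 in Both. Neighbours in this row are duplicated copies (15.9% of the 64-base stretches of ZNF808 are shared with other genes, most with ZNF611), so some of their reads could have been split between them.

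**Figure D4:**
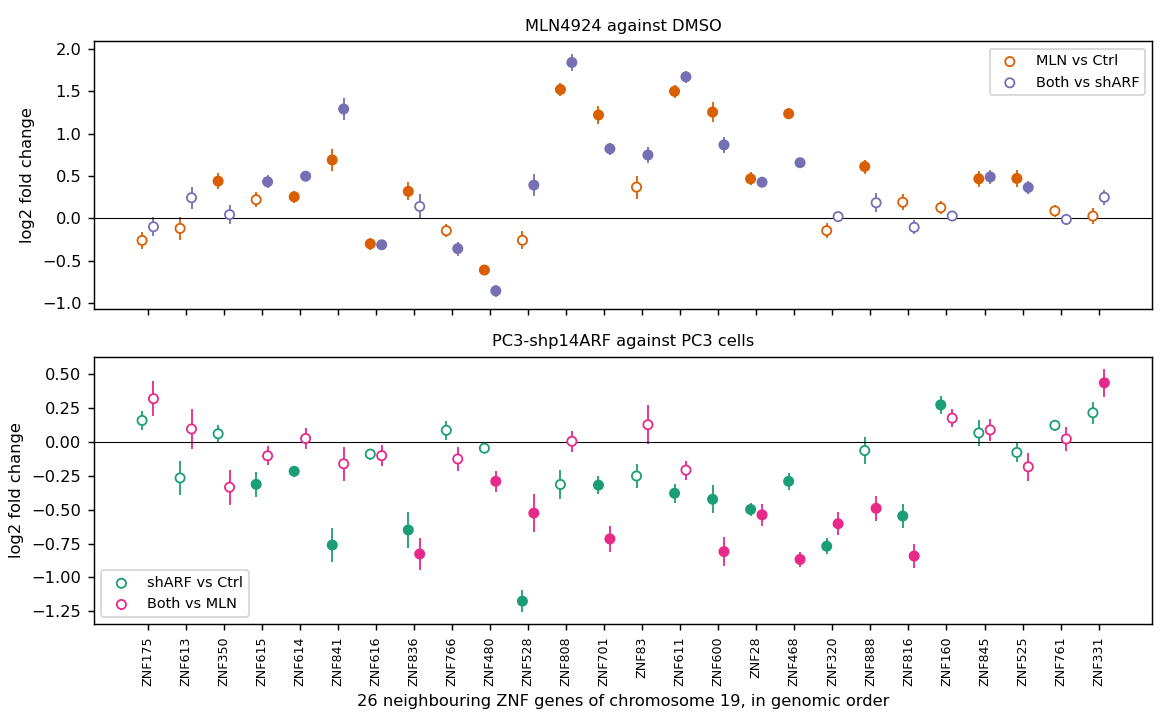
Log2 fold change of TPM + 0.1 (points, with its SE) of 26 neighbouring ZNF genes of chromosome 19 in genomic order, for MLN4924 against DMSO (top) and PC3-shp14ARF against PC3 cells (bottom). Filled points are called at an adjusted p below 0.05. ZNF808 and ZNF611 have the highest points of the top panel, at 1.5 to 1.84, and most points from ZNF528 to ZNF816 in the bottom panel lie below 0.

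The 250 bases before the RefSeq start of ZNF611 and ZNF808 are shown since these genes had the highest responses of the row. They are on GRCh38.p14 at chr19:52735045-52735294 (minus strand) and chr19:52527418-52527667 (plus strand), 5′ to 3′, and capitals again mark runs of at least 14 bases found in both, here 138 bases in each.
ZNF611: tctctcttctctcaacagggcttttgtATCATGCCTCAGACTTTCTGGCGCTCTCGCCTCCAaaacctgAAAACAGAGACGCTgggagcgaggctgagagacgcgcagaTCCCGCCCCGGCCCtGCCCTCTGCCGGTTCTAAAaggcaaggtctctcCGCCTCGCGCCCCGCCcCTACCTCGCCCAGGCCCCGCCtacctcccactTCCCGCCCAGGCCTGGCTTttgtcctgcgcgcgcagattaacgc
ZNF808: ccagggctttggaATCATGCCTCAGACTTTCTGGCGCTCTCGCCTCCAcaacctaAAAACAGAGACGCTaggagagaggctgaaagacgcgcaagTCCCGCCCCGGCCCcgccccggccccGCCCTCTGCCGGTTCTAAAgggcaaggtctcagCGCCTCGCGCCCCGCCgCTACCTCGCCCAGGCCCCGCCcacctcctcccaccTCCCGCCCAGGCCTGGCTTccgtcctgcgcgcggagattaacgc
Of the 22 members of the row with a RefSeq promoter, 15 shared at least 1 run of this length with another member of the row, and 12 shared one with members outside it. In the other rows of chromosome 19 the sharing within was 12 of 13, 26 of 39, 7 of 11, 5 of 7 and 4 of 7. Over all 243 members with a promoter, 47.7% held CCAAT on either strand, beside 33% of the 27305 promoters in the table and 36% of those of genes averaging 5 TPM or more. The share was 59.8% in KRAB members and 39% in the others. ACTACAA was held by 7% of members, 2.64% of all promoters and 3.84% of those of genes averaging 5 TPM or more. In the same order, the palindrome of NRF1 was held by 1.65%, 1.13% and 2.1%. AAGATGGCG was held by 2.06%, 0.641% and 1.14%, and TTTGGCGC by 2.06%, 0.553% and 0.96%. A match of letters is a description and shows no binding.

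Another row of 8 members, from ZNF101 to ZNF738 on the short arm of chromosome 19 (19668796 to 21388582), had 6 members higher in MLN vs Ctrl and 6 higher in Both vs shARF, beside 39.3% and 32.5% of all members. ZNF14 and ZNF708 did not pass the threshold in either. In shARF vs Ctrl 4 of the 8 were higher and the other 4 did not pass. ZNF486, a KRAB gene of this row that reached the mean of 5 TPM only through its shARF and Both libraries, was at 2.46, 2.39 and 2.50 TPM in Ctrl, 3.53, 3.35 and 2.83 in MLN, 5.58, 6.20 and 4.84 in shARF and 10.4, 11.1 and 10.3 in Both. The Both libraries stood above all others, and the shARF libraries above those of Ctrl and MLN (log2 fold change 1.69, SE 0.11, adjusted p = 0.000515 in Both vs MLN). In the row of 43 members from 55476617 to 58481230 near the end of the long arm, 18 rose and 7 fell in MLN vs Ctrl, and 13 rose and 10 fell in Both vs shARF, with shares higher of 41.9% and 30.2%.

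Members with known roles, most of them outside KRAB repression, were grouped in 4 lists. The counts of these lists stand beside 39.3% higher and 29.6% lower of all members in MLN vs Ctrl and 32.5% and 31.4% in Both vs shARF. With so few members in each, the counts are a description. In the list of RNA, ribosome and mitosis factors, 3 of 10 rose and 3 fell in MLN vs Ctrl, and 2 rose and 6 fell in Both vs shARF. ZNF598, the ubiquitin ligase that marks collided ribosomes, was at 54.7, 43.5 and 49.99 TPM in Ctrl and 82.6, 87.0 and 89.8 in MLN, and at 64.4, 57.2 and 70.0 in shARF and 93.0, 91.1 and 101 in Both. It rose in both populations (log2 fold change 0.81, adjusted p = 0.000472, and 0.58, adjusted p = 0.00154). ZNF207, which loads BUB3 at kinetochores, fell from 32.2, 33 and 34.5 to 20.6, 23.8 and 23.6 TPM in PC3 cells and from 41.6, 46.1 and 41.0 to 19.4, 20.7 and 18.7 in PC3-shp14ARF cells. ZNF638, an RNA-binding protein that acts with the HUSH complex on unintegrated retroviral DNA, fell from 23.7, 23 and 25.4 to 10.8, 9.91 and 10.0 TPM and from 22.9, 20.6 and 20.6 to 12.2, 16.5 and 13.0. ZNF622 fell in both, ZNF330 only passed the threshold in Both vs shARF, and ZNF346 in neither.

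ZNF385A, an RNA-binding partner and target of p53, had the widest movement of this list. It was at 27.4, 23.6 and 21.2 TPM in Ctrl, 54.2, 66.6 and 69.0 in MLN, 8.52, 7.97 and 8.04 in shARF, and 40.0, 38.5 and 37.1 in Both. The 4 conditions did not overlap: shARF lay lowest and MLN highest. The log2 fold change was −1.54 (SE 0.10, adjusted p = 0.000386) in shARF vs Ctrl, 1.39 (SE 0.13, adjusted p = 0.000221) in MLN vs Ctrl and 2.22 (SE 0.05, adjusted p = 1.94e-06) in Both vs shARF. The rise was larger in PC3-shp14ARF cells by an interaction of 0.83 (adjusted p = 0.00116).

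In the list of chromatin proteins, 3 of its 11 members rose and 5 fell in MLN vs Ctrl, and 4 rose and 5 fell in Both vs shARF. ZNF827, which brings the NuRD complex to telomeres, was at 63.2, 57.0 and 59.3 TPM in Ctrl, 16.5, 17.7 and 16.7 in MLN, 16, 15.6 and 15.7 in shARF, and 9.30, 10.4 and 9.89 in Both. Both MLN4924 and the shRNA went with a lower level, and Both was lowest (log2 fold change −1.81, SE 0.06, adjusted p = 6.26e-06 in MLN vs Ctrl, and −1.92, SE 0.04, adjusted p = 2.62e-05 in shARF vs Ctrl). ZNF532, part of a ZMYND8 complex with ZNF592 and ZNF687, fell from 25.3, 22.7 and 22.7 to 8.24, 7.70 and 9.06 TPM in PC3 cells and from 18, 16.3 and 17.6 to 11.2, 12.7 and 12 in PC3-shp14ARF cells. ZNF592 and ZNF687 passed the threshold in neither comparison. ZNF644, a partner of the methyltransferases EHMT1 and EHMT2, ZNF609 and ZNF518B fell in both. ZNF280C rose in both, as did ZNF410, an activator of the NuRD subunit gene CHD4, although 83.6% of its 64-base stretches are shared with other genes. ZNF274, a KRAB protein that brings SETDB1 to ZNF genes, rose from 10.8, 9.35 and 10.0 to 17.6, 17.8 and 17.9 TPM and from 7.86, 6.69 and 7.07 to 11, 10.8 and 12.3.

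In the list of transcription factors without KRAB, 5 of 12 rose and 7 fell in MLN vs Ctrl, and 4 rose and 6 fell in Both vs shARF. The paralogs ZNF143 and ZNF76, which bind the same promoter motif, moved in opposite directions. ZNF143 rose from 16.3, 16.6 and 16.7 to 28.2, 32 and 28.8 TPM in PC3 cells and from 18.8, 17.5 and 17.4 to 32.5, 35.3 and 29.6 in PC3-shp14ARF cells (log2 fold change 0.84, SE 0.06, adjusted p = 8.94e-05, and 0.85, SE 0.07, adjusted p = 0.000181). ZNF76 fell from 18.8, 16.2 and 20.005 to 6.87, 5.71 and 6.80 TPM and from 16.6, 14.6 and 17.6 to 4.59, 4.30 and 5.87 (log2 fold change −1.49, SE 0.11, adjusted p = 9.99e-05, and −1.71, SE 0.14, adjusted p = 0.000130). ZNF281, ZNF24 and ZNF335 rose in both comparisons, and ZNF503, ZNF703, ZNF652, ZNF131 and ZNF395 fell in both. ZNF703, a repressor linked to breast cancer, was called lower in MLN vs Ctrl at an adjusted p of 0.0416 that was lost in 8 of 14 other settings. The call of ZNF131 in Both vs shARF was lost in 8 of 13 and that of ZNF652 in MLN vs Ctrl in 5 of 14. The list of SUMO and ubiquitin ligases held ZNF598 and ZNF451, a SUMO2 and SUMO3 ligase. ZNF451 was at 8.35, 9.44 and 9.76 TPM in Ctrl, 10.9, 10.7 and 10.4 in MLN (adjusted p = 0.0530), 7.44, 7.22 and 6.81 in shARF and 9.83, 10.9 and 9.23 in Both (log2 fold change 0.47, adjusted p = 0.00344 in Both vs shARF).

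KRAB proteins repress through partner proteins. Of 26 genes for corepressor and heterochromatin proteins tested, 4 rose and 13 fell in MLN vs Ctrl, and 2 rose and 21 fell in Both vs shARF, while 11 were higher and 1 was lower in shARF than in Ctrl. Of all genes averaging 5 TPM or more, 37.3% rose and 37.4% fell, 33.3% rose and 41.9% fell, and 30.1% were higher and 24.4% lower in these comparisons. TRIM28 was at 327 ± 35.3 TPM (SD, n = 3) in Ctrl and 260 ± 42.9 in MLN, against 493 ± 46.2 in shARF and 265 ± 12.1 in Both. It passed the threshold in Both vs shARF (log2 fold change −0.89, adjusted p = 0.000182) and in shARF vs Ctrl (0.59, adjusted p = 0.00939), and not in MLN vs Ctrl (−0.34, adjusted p = 0.0893). With log2 values beyond 1 in MLN vs Ctrl, ATRX, CBX5, EHMT1 and MPHOSPH8 were lower and DNMT3B and the histone H3.3 chaperone DAXX were higher. ATRX, the partner of DAXX, was at −1.94 and DAXX at 1.25. Other zinc finger families (ZBTB, ZSCAN, ZKSCAN, ZFP and KLF) had 66 genes averaging 5 TPM or more. Of these, 23 were higher and 17 lower in MLN vs Ctrl, and 23 higher and 20 lower in Both vs shARF.

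The effect of the shRNA without the drug was given by shARF vs Ctrl. Here 63 members were higher and 59 lower, 22.5% and 21.1%, beside 21% and 20.4% of all genes tested and 30.1% and 24.4% of genes averaging 5 TPM or more. Beyond a log2 value of 1, 3 were higher and 5 lower, beside 3.87% and 6.6% of all genes tested and 2.4% and 4.49% of genes averaging 5 TPM or more. The largest positive values were those of ZNF367, ZNF114, ZNF486, ZNF275 and ZNF724, and the largest negative ones those of ZNF827, ZNF385A, ZNF697, ZNF528 and ZNF449. ZNF367 was at 19.6, 18.6 and 20.9 TPM in shARF, above all Ctrl libraries (log2 fold change 1.47, SE 0.09, adjusted p = 0.000348). ZNF275 went from 7.30, 5.51 and 6.03 to 12.4, 11.9 and 12.6 TPM. ZNF697 went from 22.3, 20.3 and 21 to 8.65, 8.48 and 9.76 TPM (log2 fold change −1.23, SE 0.07, adjusted p = 0.000273), and ZNF528 from 7.62, 8.14 and 7.60 to 3.65, 3.41 and 3.13. Leaving out shARF replicate 1 or 3 took the higher share from 22.5% to 13.9% or 14.6%.

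Whether the shRNA changed the members in the presence of the drug was given by Both vs MLN. In it 37 members were higher and 60 lower, 13.2% and 21.4%, beside 11.8% and 20.6% of all genes tested and 16% and 24.1% of genes averaging 5 TPM or more. Above a log2 value of 1 were 2 members, ZNF486 and ZNF469, beside 2.18% of all genes tested and 0.823% of genes averaging 5 TPM or more. The lowest value was that of ZNF365, at −0.99, while 6.84% and 3.42% of these genes were called below −1. With median-of-ratios scaling, which moves the median of all genes here by 0.092, the split turned to 58 higher and 44 lower. How the split of all genes changed with it was not counted. Without MLN replicate 2 the shares were 6.07% and 12.1%, and without Both replicate 2 they were 6.79% and 12.5%. The higher share was 8.21% without MLN replicate 5 and 8.57% without Both replicate 3. Besides these, ZNF784, ZNF275 and ZNF664 had the largest positive values and ZNF441, ZNF468, ZNF436 and ZNF816 the largest negative ones. ZNF784 was at 9.18, 10.4 and 8.87 TPM in MLN and 17.3, 14.5 and 16.8 in Both (log2 fold change 0.77, SE 0.10, adjusted p = 0.00350). ZNF436 was at 22.5, 22.1 and 22.4 TPM in MLN and 12.5, 13.3 and 11.4 in Both (log2 fold change −0.85, SE 0.07, adjusted p = 0.000912).

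The difference between the responses of the 2 populations was tested as the interaction, Both vs shARF minus MLN vs Ctrl. It was positive in 29 members and negative in 39, 10.4% and 13.9%, beside 11.2% and 17.1% of all genes tested and 15.1% and 24% of genes averaging 5 TPM or more. With median-of-ratios scaling, which moves the median interaction of all genes by 0.099, it was positive in 46 and negative in 29. The shares of all genes under that scaling were not counted. The largest negative values were those of ZNF114, ZNF441, ZNF367, ZNF738 and ZNF860, and the largest positive ones those of ZNF449, ZNF827, ZNF697, ZNF532 and ZNF385A. ZNF441, a KRAB gene, rose in PC3 cells from 3.42, 4.22 and 4.80 to 10.1, 9.56 and 7.24 TPM. In PC3-shp14ARF cells it was at 4.64, 5.86 and 5.48 and then 4.19, 4.83 and 5.54 TPM, with overlapping libraries (interaction −1.23, adjusted p = 0.00205).

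Of the 5 members called in opposite directions, ZNF449 differed most. It was at 7.15, 6.96 and 8.78 TPM in Ctrl, 5.01, 4.15 and 4.95 in MLN, 3.28, 3.03 and 4.08 in shARF and 4.94, 5.93 and 4.88 in Both. It fell with MLN4924 in PC3 cells (log2 fold change −0.68, adjusted p = 0.00455) and rose in PC3-shp14ARF cells (0.59, adjusted p = 0.0139). The difference between these responses, the interaction, was 1.28 (adjusted p = 0.000615). ZNF185, an actin cytoskeleton protein with a LIM domain, went from 57.3, 48.6 and 48.5 to 38.2, 40.3 and 40.4 TPM in PC3 cells and from 27.2, 26.2 and 28.1 to 35.6, 38.0 and 31.4 in PC3-shp14ARF cells (interaction 0.73, adjusted p = 0.000620). ZNF621 went the same way, and ZNF740 and ZNF689 the opposite way. For ZNF621, ZNF740 and ZNF689 at least 1 of the 2 calls was lost in 6 or more other settings.

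**Figure D5:**
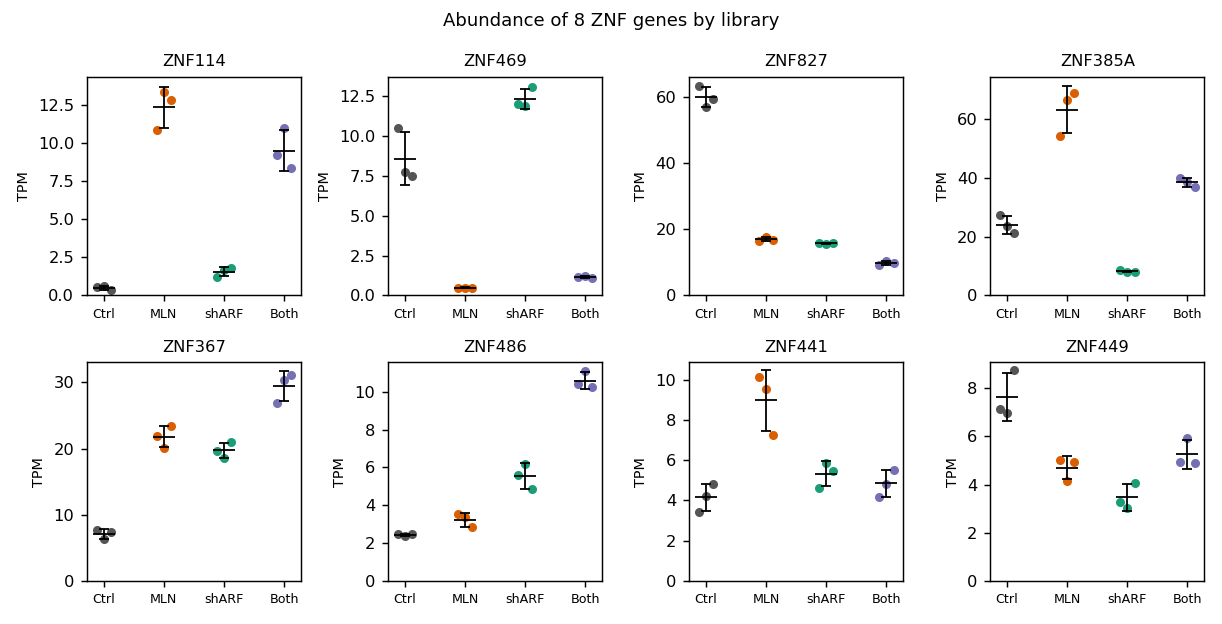
TPM of 8 ZNF genes in the 12 libraries (points), with the mean and SD (black) of the 3 libraries of each condition. The y axes start at 0. ZNF114 and ZNF385A are high in MLN and Both, ZNF469 is low there, ZNF827 is highest in Ctrl at 57.0 to 63.2 TPM, and ZNF486 is highest in Both at 10.3 to 11.1 TPM.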

How the data were processed

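Libraries from PC3 and PC3-shp14ARF cells given DMSO or MLN4924 were sequenced, trimmed and mapped to hg38 by the authors with CLC Genomics Workbench, and their deposited table gives TPM (scaled to gene length and to a sum of 1000000 per library) for 43622 genes. It holds no read counts, so depth and counting intervals are unknown. The groups were taken from the labels. The 280 members and the gene lists were chosen with earlier results of these data known, and the mean TPM of the same libraries chose the members.

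The 19932 genes averaging 0.1 TPM or more were tested on log2(TPM + 0.1), a scale that understates changes of low genes, with limma 3.58.1 in R 4.3.3 (moderated test with an intensity trend, Benjamini-Hochberg over all genes tested). Calls needed an adjusted p below 0.05. Pairwise comparisons used the 6 libraries concerned and the interaction all 12. The script was tested on simulated data.

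Members named were the 8 with the highest mean, the 5 largest called values in each direction of each comparison without overlap between libraries (for the interaction, called only), the role lists, those called in opposite directions, and the 3 just inside and outside the threshold. The members named from the chromosome 10 interval and from the rows on chromosome 19, and the wider KRAB pattern, were chosen after their values were seen. Positions, transcripts and proteins came from GENCODE v44 and promoters from the RefSeq table on GRCh38.p14, in which 243 members were found. Alternatives were the pseudocount, the filter, the scaling, the trend, a fit of all libraries, a replicate block, the choice of members and each library left out.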

Additional observations from a re-analysis of the deposited data

Results flagged for a closer look

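The difference between the MLN4924 responses of PC3-shp14ARF and PC3 cells was itself tested as an interaction, and 31 of 66 named members passed an adjusted p of 0.05 in limma. These members include those chosen for a large interaction, so the count is a description. Of all genes tested, 11.2% had a positive and 17.1% a negative interaction, and of genes averaging 5 TPM or more 15.1% and 24%. Groups of 3 libraries are too small for a test of single libraries that stand apart.

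The interaction (log2, positive where the response of PC3-shp14ARF cells was the higher) was negative for 15 members. It was −1.83 for ZNF114, −1.23 for ZNF441 and −1.03 for ZNF367, all of which rose in PC3 cells. It was −0.95 for ZNF738, −0.85 for ZNF860, −0.58 for ZNF468 and −0.55 for ZNF365, which rose in PC3 cells too. For ZNF703 (−0.80), ZNF395 (−0.76) and ZNF207 (−0.57) a fall was deeper in PC3-shp14ARF cells. Smaller values were found for ZNF689 (−0.55), ZNF384 (−0.47), ZNF593 (−0.42), ZNF740 (−0.39) and ZNF436 (−0.36).

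It was positive for 16 members. ZNF449 (1.28), ZNF185 (0.73) and ZNF621 (0.59) fell in PC3 cells and rose in PC3-shp14ARF cells. ZNF827 (1.14), ZNF532 (0.96), ZNF638 (0.59), ZNF469 (0.57), ZNF664 (0.50) and ZNF518B (0.43) fell in both, less so in PC3-shp14ARF cells. ZNF697 (0.98), ZNF385A (0.83), ZNF438 (0.72), ZNF486 (0.55) and ZNF280C (0.44) rose in both, more so in PC3-shp14ARF cells. The values of ZNF528 and ZNF585B were 0.65 and 0.52. For ZNF385A, ZNF697, ZNF827 and ZNF185 the DMSO level was already lower in shARF than in Ctrl, and for ZNF367 and ZNF114 it was higher.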

How the results depend on the processing

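Among the values of named members that were recomputed singly, no called one changed sign. Uncalled ones near 0 did with 1 library left out: in MLN vs Ctrl ZNF217 ranged from −0.0686 to 0.0211 and ZNF106 from −0.00932 to 0.0744, and in Both vs shARF ZNF384 ranged from −0.0471 to 0.0361. Members named only for their place on chromosome 10 or 19 or just inside the threshold were not recomputed singly. Of 917 values of single members under another pseudocount, filter, scaling, trend or fit, 881 kept their side of the threshold, 28 lost their call and 8 gained one. Of 882 with 1 library left out, 808 kept it and their sign, 60 lost it and 9 gained it. Under the replicate block, 40 of 74 values kept their side of the threshold and 34 lost their call. The calls lost most often were those of ZNF689, ZNF106, ZNF131, ZNF217, ZNF326 and ZNF581 in Both vs shARF and of ZNF593, ZNF703, ZNF740 and ZNF621 in MLN vs Ctrl. With median-of-ratios scaling, 20.7% of members were higher in Both vs MLN and 16.4% had a positive interaction. The shares of all genes were not counted under this scaling.

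With 1 library left out, the share higher in MLN vs Ctrl was 31.4% to 36.4% and the share lower 24.6% to 28.2%. In Both vs shARF they were 29.6% to 33.2% and 25.4% to 30.0%, and in shARF vs Ctrl 13.9% to 23.2% and 15.7% to 21.1%. In Both vs MLN they were 6.07% to 11.1% and 12.1% to 19.6%. The share higher was 6.07% without MLN replicate 2, 8.21% without MLN replicate 5, 6.79% without Both replicate 2 and 8.57% without Both replicate 3. The share lower was 12.1% without MLN replicate 2 and 12.5% without Both replicate 2. A positive interaction was found in 7.86% to 11.8% and a negative one in 10.4% to 17.1%. Fewer libraries enter each of these fits.

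The library numbers are not explained in the labels. Deviations from the group mean correlated between libraries of the same number at −0.305 to 0.124 (1 of 10 pairs over 0.1), and between different numbers at −0.255 to 0.373 (10 of 44), so the numbers were not taken to pair libraries. With the replicate block, where only libraries that share a number bear on the difference in a pairwise comparison, 13.9% of members were higher and 8.21% lower in MLN vs Ctrl, and 6.07% had a positive and 5.71% a negative interaction. The shares called over all genes were not counted for this fit. At an unadjusted p below 0.05 in limma it had 135 members in MLN vs Ctrl and 80 in the interaction. Of all genes tested, 48.6% and 31.2% were below it. In shARF vs Ctrl 106 members had an unadjusted p below 0.05 in limma with the block, beside 38.9% of all genes tested. The smallest adjusted p of any gene there was 0.0607, so 0 members were called higher and 0 lower. This ends the calls of the row of 26 on chromosome 19 in that comparison, where 19 of its members were below 0 (median −0.26). It could not be fitted for Both vs shARF and Both vs MLN, which share 1 number. Without counts, depth limits on low genes cannot be given.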
